A study of Mus musculus with 19 samples.

Results

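The genes described here are 9 markers of cortical excitatory neurons (Slc17a7, Tbr1, Neurod6, Neurod2, Cux2, Rorb, Fezf2, Emx1 and Neurod1), measured in dissected mouse striatum together with the striatal genes Ppp1r1b and Drd1. They were chosen by name, as a measure of cortical tissue that may come along when the striatum is cut out, and they are 9 of the 54232 genes in the table. Of these, 8 passed the filter on low counts and were among the 18521 genes tested. Neurod1 did not pass it and is described by its counts alone. RNA was sequenced from the striatum of 7 wild-type (WT) mice and from 3 knock-in groups of 4 mice each, named KI-96, KI-571 and KI-FL; all were 6 months old and on the C57/BL/6 background. The knock-in (KI) lines descend from HD140Q mice, in which the endogenous huntingtin gene carries an expanded CAG repeat. KI-FL mice express full-length mutant huntingtin, KI-571 mice an N-terminal fragment of it, and KI-96 mice a shorter N-terminal fragment, both truncated by CRISPR-Cas9. The study worked with heterozygous KI mice, so that a normal allele was present as well. By its methods a single founder gave the KI-571 line and several founders gave KI-96. The labels name the tissue only as striatum and do not say how it was separated from the cortex above it.

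Excitatory neurons of the neocortex release glutamate and send long axons, many of them into the striatum. The striatum itself is built almost entirely of inhibitory neurons, most of them projection neurons that carry DARPP-32 (encoded by Ppp1r1b) and either the D1 or the D2 dopamine receptor. A sheet of white matter and the claustrum lie between the 2 tissues, and the cut is made by hand. Because RNA of bulk tissue was measured, more cells of a type and more RNA per cell cannot be told apart.

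Each mouse gave between 12669809 and 26388542 reads on genes. In WT replicate 3, 7 of the 9 cortical markers stood above all other mice. KI-571 replicate 2 was second for the same 7 genes. KI-FL replicate 4 stood apart in another way: 3186 of the 18521 tested genes had 0 counts in it, against 10 to 222 in the other mice. The methods state that a WT mouse was removed as a possible outlier without naming it, and whether that was WT replicate 3 is not known here. Neither sex nor sacrifice batch is in the labels. Xist, the transcript of the inactive X chromosome of females, was high in 6 mice, at 886 to 1615 CPM (counts scaled to library size), and at 0.267 to 5.05 CPM in the other 13. The 6 were the 4 mice of the KI-96 group, 1 of the 7 WT mice (replicate 1) and 1 of the 4 KI-FL mice (replicate 2). By this marker sex cannot be told apart from genotype between KI-96 and KI-571 mice, and WT and KI-FL mice were mostly like KI-571 mice. The reporting summary speaks of littermates assigned at random, but which of these mice shared a litter is not given. Same-numbered replicates of different genotypes are not described as littermates. The main fits held no term for litter, sacrifice batch or sex, and their p-values treat the mice as independent.

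Before the values, the regions around the transcription start of 3 of the markers are shown. These genes were picked by their results, as they rose and fell together from mouse to mouse. Slc17a7 was the marker against which the others were set, and Neurod2 and Tbr1 had the smallest adjusted p-values in that comparison. Each window runs from 250 bases before to 50 bases after a RefSeq start site on GRCm38.p6, written 5′ to 3′ on the strand of the gene. Capitals mark the E-box core CANNTG, the letters bound by basic helix-loop-helix factors such as the Neurod proteins. On the opposite strand the core reads CANNTG as well.

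Slc17a7, chr7:45163671-45163970, strand +: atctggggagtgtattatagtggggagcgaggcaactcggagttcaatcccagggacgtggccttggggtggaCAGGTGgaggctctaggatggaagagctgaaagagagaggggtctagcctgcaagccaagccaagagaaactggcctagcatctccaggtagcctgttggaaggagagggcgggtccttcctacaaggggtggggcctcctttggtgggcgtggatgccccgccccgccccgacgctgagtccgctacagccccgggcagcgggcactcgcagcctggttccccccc

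Neurod2, chr11:98329596-98329895, strand -: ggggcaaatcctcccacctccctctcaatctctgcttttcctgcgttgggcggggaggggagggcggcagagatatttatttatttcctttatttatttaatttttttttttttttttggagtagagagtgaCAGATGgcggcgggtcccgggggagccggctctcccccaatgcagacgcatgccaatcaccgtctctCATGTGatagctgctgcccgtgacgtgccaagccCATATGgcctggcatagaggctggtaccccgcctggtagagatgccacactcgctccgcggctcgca

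Tbr1, chr2:61804203-61804502, strand +: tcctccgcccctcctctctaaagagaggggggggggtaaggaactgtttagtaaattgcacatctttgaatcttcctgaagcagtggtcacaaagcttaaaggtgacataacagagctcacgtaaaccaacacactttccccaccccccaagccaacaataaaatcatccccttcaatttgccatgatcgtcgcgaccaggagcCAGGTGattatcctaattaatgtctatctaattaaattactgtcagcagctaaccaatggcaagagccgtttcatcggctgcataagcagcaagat

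The Slc17a7 and Tbr1 windows each held 1 E-box core with the letters CAGGTG. The Neurod2 window held 3, of which CAGATG is a form often bound by Neurod proteins. Of 32851 RefSeq windows of this length, 72.3% held at least 1 CANNTG and 17.2% held CAGATG (or CATCTG, its other strand). Among the other members, the windows of Cux2, Rorb, Neurod6, Emx1 and Neurod1 also held the core, and the Fezf2 window held none. Cux2 and Rorb did not pass the test against Slc17a7 given below, yet both Cux2 windows held CAGGTG and 1 of them CATCTG. A match describes letters only.

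Slc17a7 encodes VGLUT1, the vesicular glutamate transporter of cortical excitatory neurons. Its gene lies on chromosome 7 (GRCm38, 45163949 to 45176142, plus strand) and hosts the microRNA gene Mir7055. In WT mice the lowest level of Slc17a7 was 11.5 CPM (counts scaled to library size, with library sizes adjusted by TMM), the median was 30.8 CPM and the highest was 819 CPM, in WT replicate 3. The 4 KI-96 mice were at 5.92, 31.5, 22.9 and 90.4 CPM. The 4 KI-571 mice were at 36.1, 329, 26.3 and 58.4 CPM, and the 4 KI-FL mice at 26.4, 36.9, 89.0 and 26.2 CPM. The genotypes overlapped throughout, and the widest gaps lay inside genotypes. WT replicate 3 held 13875 counts of Slc17a7, 36.1 times the median CPM of the other 6 WT mice. KI-571 replicate 2 held 5523 counts, 9.10 times the median CPM of the other 3 KI-571 mice. From the lowest mouse, KI-96 replicate 1 with 82 counts, to the highest, the level spanned 138-fold.

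**Figure D1:**
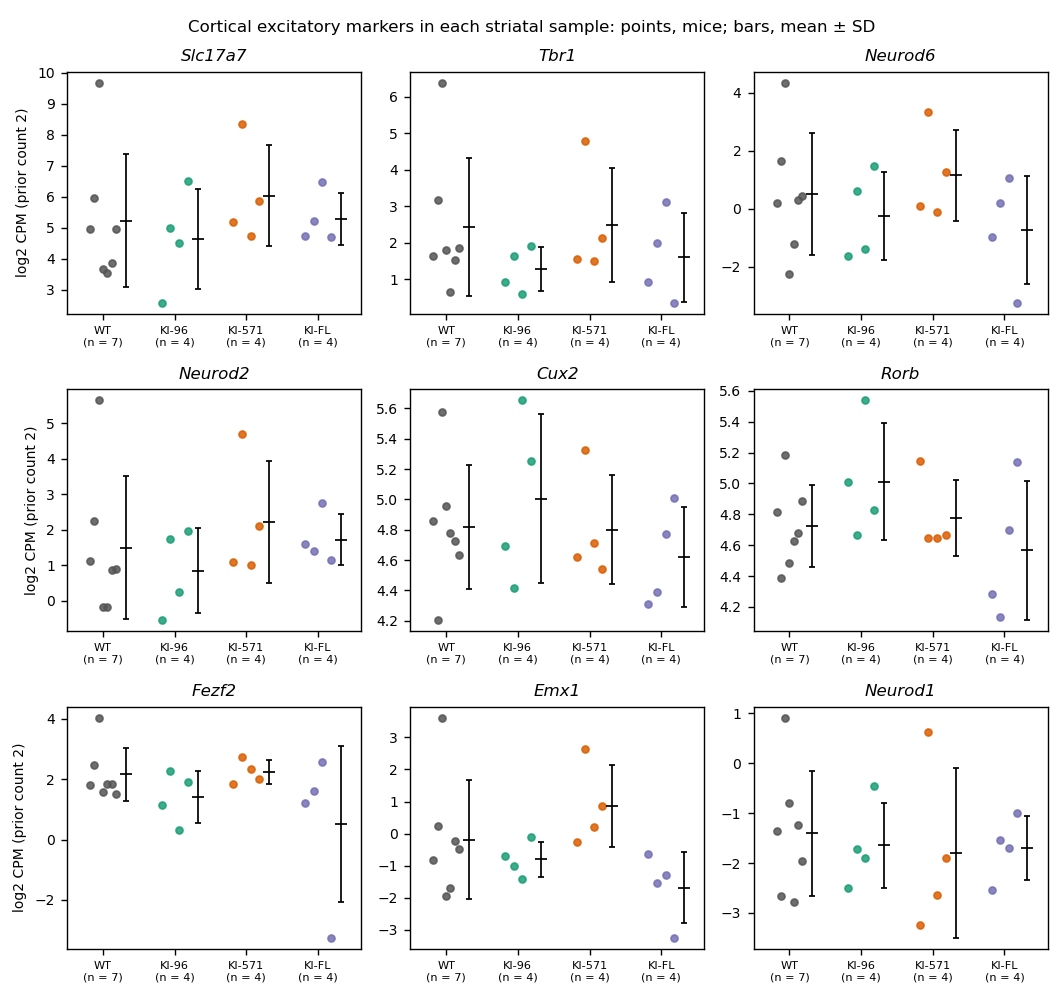
Level of each cortical marker (log2 CPM, prior count 2) in every mouse, by genotype, with 1 panel per gene; points are mice (7 WT and 4 of each KI genotype), and bars give the mean ± SD. WT replicate 3 is the highest point for 7 genes, while for Cux2 and Rorb the highest point is a KI-96 mouse and the whole range is under 3-fold.

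To set these levels beside a striatal gene, CPM were divided by the length of each gene's exons in kb. The median over the 19 mice was 5.79 CPM per kb for Slc17a7, 2.61 for Cux2, 2.30 for Rorb and 1.14 for Fezf2. It was 0.665 CPM per kb for Neurod2, 0.548 for Tbr1, 0.480 for Neurod6, 0.243 for Emx1 and 0.0719 for Neurod1. Ppp1r1b was at 620.3 and Drd1 at 61.2 CPM per kb. In WT replicate 3, Slc17a7 reached 152 CPM per kb, above Drd1 in the same mouse (54.7) and below Ppp1r1b (639). Both striatal genes were present in every library, Ppp1r1b from 303 to 763 and Drd1 from 44.2 to 86.4 CPM per kb. The members other than Slc17a7 did not exceed 16.0 CPM per kb in any mouse.

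Tbr1, Neurod2 and Neurod6 encode transcription factors of postmitotic excitatory neurons. Tbr1, a T-box factor of deep cortical layers, lies on chromosome 2 (61802930 to 61814114, plus strand). It was lowest at 1.47, at a median of 3.37 and highest at 83.8 CPM in WT mice, the last again in WT replicate 3. In KI mice it lay between 1.17 and 8.49 CPM, except for 27.8 CPM in KI-571 replicate 2. The ratio of WT replicate 3 to the median of the other WT mice was 26.4 for Tbr1.

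Neurod2, a basic helix-loop-helix factor of cortical excitatory neurons, lies on chromosome 11 (98325415 to 98329648, minus strand). Ppp1r1b is its neighbour there, 18.8 kb away with no annotated gene between them. In WT mice Neurod2 was at 0.777 CPM at the lowest, 1.76 at the median and 50.3 in WT replicate 3. The KI-96 mice were at 0.577, 3.20, 1.08 and 3.81 CPM, the KI-571 mice at 2.02, 25.6, 1.92 and 4.19 CPM, and the KI-FL mice at 2.92, 2.53, 6.62 and 2.09 CPM. The neighbour Ppp1r1b did not share this pattern: it was at 1869.9 CPM in WT replicate 3, the seventh highest of 19 mice.

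Neurod6, a related factor (chromosome 6, 55677822 to 55681263, minus strand), had 345 counts in WT replicate 3, 169 in KI-571 replicate 2 and 0 to 64 counts in the other 17 mice. Emx1, a homeobox gene of the developing and adult dorsal telencephalon (chromosome 6, 85187438 to 85204462, plus strand), had 206 counts in WT replicate 3, 102 in KI-571 replicate 2 and 0 to 32 in the others. As CPM, WT replicate 3 was 18.8 times the median of the other WT mice for Neurod6 and 22.7 times for Emx1. Both genes were at 0 counts in KI-FL replicate 4, where 3 counts correspond to 0.196 CPM. Neurod1, a factor of differentiating neurons (chromosome 2, 79452521 to 79456751, minus strand), reached 30 counts in WT replicate 3 and 24 in KI-571 replicate 2 and had 0 to 15 counts elsewhere. Its annotation overlaps Cerkl on the same strand and the noncoding gene Gm26755 on the other, and the strand setting of the counting is not given in the sources used here, so that its few counts are uncertain in origin.

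The layer markers behaved unequally. Fezf2, the selector gene of subcortically projecting layer 5 neurons (chromosome 14, 12342094 to 12348189, minus strand), was at 2.71 CPM at the lowest, 3.48 at the median and 16.3 at the highest in WT mice. The highest was WT replicate 3, at 4.75 times the median of the other WT mice. In KI-571 replicate 2 Fezf2 was at 6.61 CPM, 1.71 times the median of the other KI-571 mice. It was the other member at 0 counts in KI-FL replicate 4.

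Cux2, a homeobox gene of upper-layer neurons (chromosome 5, 121856366 to 122050102, minus strand), was at 18.3 CPM at the lowest, 27.4 at the median and 47.5 at the highest in WT mice. Its KI-96 mice were at 25.8, 21.3, 50.3 and 38.1 CPM. Rorb, a nuclear receptor gene of layer 4 neurons (chromosome 19, 18930605 to 19111196, minus strand), was at 20.8 CPM at the lowest, 25.5 at the median and 36.2 at the highest in WT mice. For both genes WT replicate 3 was the second highest mouse, and the highest was KI-96 replicate 3. Over the 19 mice the highest level was 2.74 times the lowest for Cux2 and 2.65 times for Rorb, against 87.1 times for Neurod2 and 71.3 times for Tbr1. Cux2 overlaps the antisense genes Gm3970 and Gm15637, whose reads cannot be told from its own without strand.

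The question which genes followed Slc17a7 from mouse to mouse inside a genotype was put to all genes with edgeR's quasi-likelihood test. The slope is the change of a gene in log2 units for each log2 unit of Slc17a7, with the genotype in the model, so that a gene in constant proportion to Slc17a7 has a slope of 1. Of the 7 other members tested, 4 rose with Slc17a7 at an adjusted p (Benjamini-Hochberg over 18520 genes) under the threshold of 0.05 and none fell. Over all genes tested, 0.734% rose and 0.0702% fell, 0.805% in all. At an unadjusted p under 0.05 there were 6 of the 7 members and 8.77% of all genes. The slope was 0.94 for Neurod2 (SE 0.049, adjusted p = 1.97e-10), 0.83 for Tbr1 (SE 0.064, adjusted p = 1.51e-07), 0.96 for Neurod6 (SE 0.10, adjusted p = 9.38e-06) and 0.75 for Emx1 (SE 0.10, adjusted p = 0.000241). Fezf2 had a slope of 0.37 (SE 0.10) that did not pass the test (adjusted p = 0.0971) with all mice and did without KI-FL replicate 4 (slope 0.35, adjusted p = 0.00164). Cux2 had a slope of 0.12 (SE 0.045, adjusted p = 0.346) and Rorb one of 0.033 (SE 0.044, adjusted p = 0.917). The median slope of the 7 members was 0.75, beside 0.0020 over all genes.

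**Figure D2:**
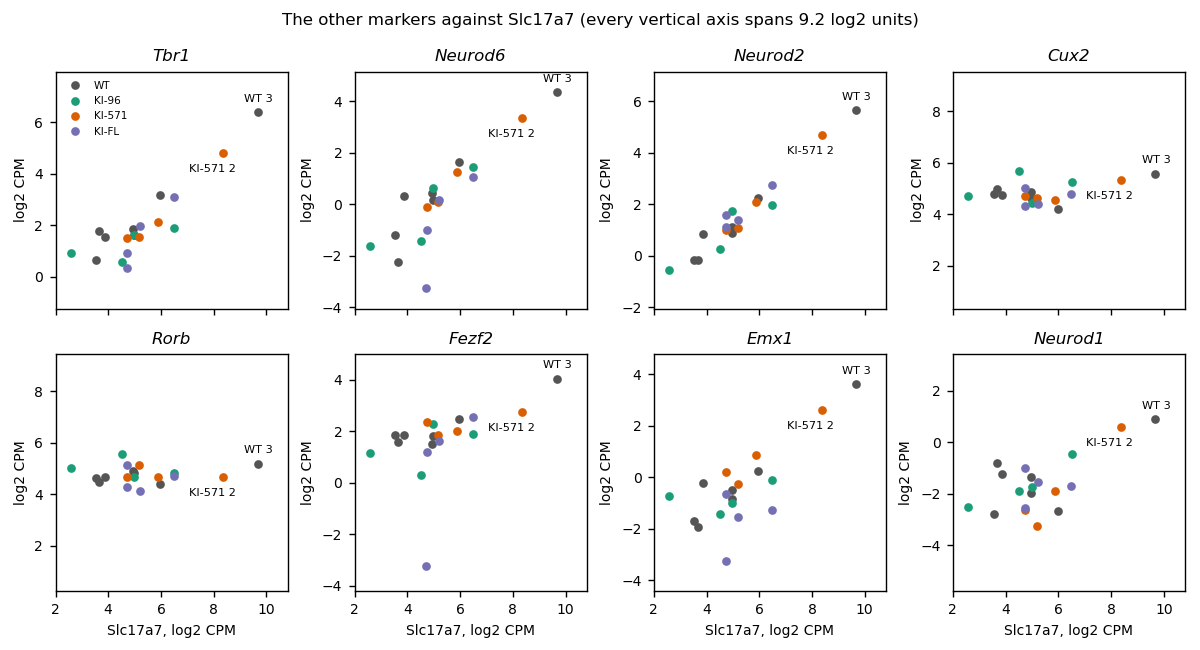
Level of each of the other 8 markers (vertical, log2 CPM) against Slc17a7 (horizontal, log2 CPM) in the 19 mice, coloured by genotype, with WT replicate 3 and KI-571 replicate 2 named. Neurod2 climbs with Slc17a7 with or without the 2 named mice (slope 0.94 and 0.82). Tbr1 rises less evenly, with a slope of 0.83 with all mice and 0.59 without those 2. Cux2 and Rorb span 2.74-fold and 2.65-fold over all mice.

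Because both extreme mice lie at the end of this range, the fit was repeated without WT replicate 3 and KI-571 replicate 2 together, a choice made after seeing the data. In the 17 mice left, 1 of 18866 genes rose (0.0053%) and 0 fell at an adjusted p under the threshold, with 3.03% of genes at an unadjusted p under 0.05. That gene was Neurod2, with a slope of 0.82 (SE 0.12, adjusted p = 0.0406 by edgeR's quasi-likelihood test). Tbr1 had a slope of 0.59 (SE 0.14, adjusted p = 0.999), Neurod6 one of 1.17 (SE 0.24, adjusted p = 0.550) and Emx1 one of 0.37 (SE 0.23, adjusted p = 0.999). Fezf2 stayed at 0.36 (SE 0.21), while Cux2 was at -0.0053 (SE 0.084) and Rorb at -0.041 (SE 0.079), with an adjusted p of 0.999 each.

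The same contrast between members shows in their counts for each 100 counts of Slc17a7 in a mouse. For Neurod2 these were 6.14 in WT replicate 3, 7.80 in KI-571 replicate 2 and 4.21 to 11.7 in the other 17 mice. For Tbr1 they were 10.2 and 8.46 in the 2 mice and 4.03 to 30.5 in the others, so that both mice lay inside the range. For Cux2 they were 5.80 and 12.2, below the 29.3 to 435 of every other mouse. Rorb likewise had 4.42 and 7.60, below the 29.1 to 543 of the others. Fezf2, at 1.99 and 2.01, was above KI-FL replicate 4 alone, the library with 0 counts of it. The remaining mice lay higher, from 3.98 in KI-96 replicate 4 to 35.4. The counts of Cux2, Rorb and Fezf2 thus did not go up in proportion to Slc17a7 in these mice.

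**Figure D3:**
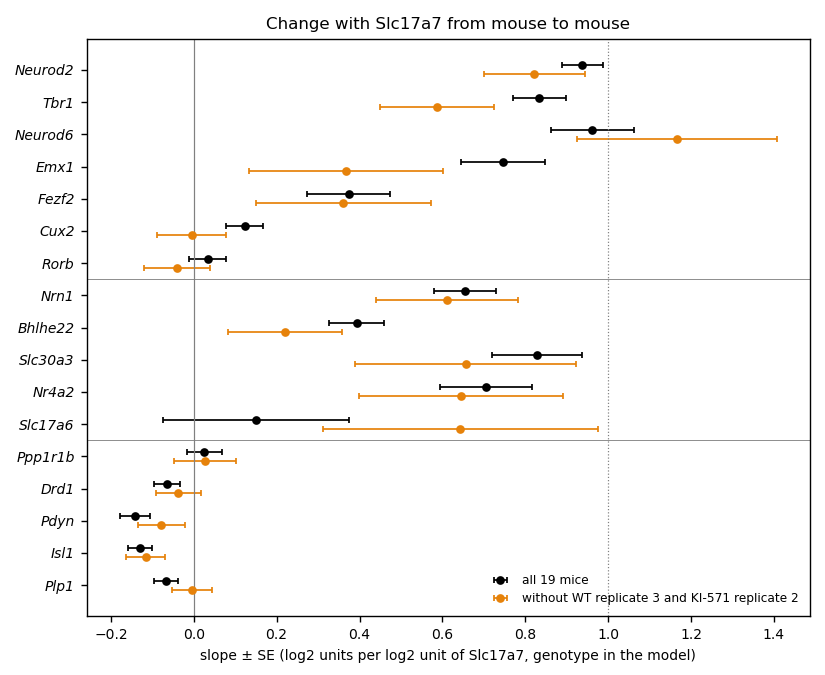
Slope on Slc17a7 (log2 units per log2 unit, ± SE, genotype in the model) for the members (top block), for other excitatory markers (middle block) and for striatal and myelin genes (bottom block), with all 19 mice (black) and without WT replicate 3 and KI-571 replicate 2 (orange); the dotted line marks 1. Neurod2, Tbr1 and Neurod6 lie near the dotted line with all mice, and Ppp1r1b and Drd1 lie near 0 in both fits.

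Other marker lists were read in the same fit. Of 3 further genes of cortical excitatory neurons of many layers, 2 rose with Slc17a7: Nrn1, a neurite growth factor at the cell surface (slope 0.66, SE 0.075), and Bhlhe22, a repressor of the helix-loop-helix family (0.39, SE 0.067). Their adjusted p-values by edgeR's quasi-likelihood test were 3.45e-05 and 0.00264. The third, Lhx2, a homeobox gene of the LIM family, had a slope of 0.097 (SE 0.038, adjusted p = 0.398). Of 7 other upper-layer and layer 4 genes, 1 rose, namely Slc30a3, the zinc transporter of glutamatergic vesicles (0.83, SE 0.11, adjusted p = 0.000148), and of 10 other deep-layer genes none passed the test (6 slopes above 0, median 0.030). Of 4 claustrum and insula genes, 1 rose, Nr4a2 (0.70, SE 0.11, adjusted p = 0.00142), a nuclear receptor gene abundant in the claustrum. Of 5 hippocampal genes none passed the test. None of the 5 genes of thalamic and other subcortical excitatory neurons did either, Slc17a6 among them (0.15, SE 0.22, adjusted p = 0.936). All 5 of these slopes were above 0, with a median of 0.15. Without WT replicate 3 none of Nrn1, Bhlhe22, Slc30a3 and Nr4a2 passed the test any longer (adjusted p = 0.294, 0.892, 0.535 and 0.642), while their slopes were 0.61, 0.38, 0.86 and 0.71 with larger SE (0.13, 0.11, 0.20 and 0.18).

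Slc17a6, which encodes VGLUT2, the transporter used by most excitatory neurons of the thalamus, followed other mice. It was highest in KI-96 replicate 4 at 45.8 CPM and stood at 5.43 CPM in WT replicate 3 and 3.93 CPM in KI-571 replicate 2. Prkcd, a thalamic kinase gene, was also highest in KI-96 replicate 4, at 129.5 CPM. In a set of 8 relations added after seeing the data, Cux2 and Slc17a6 had a Pearson r of 0.49 (permutation p = 0.0323, adjusted p over the 8 relations 0.258) and a Spearman rho of 0.52 (permutation p = 0.0235, adjusted p = 0.188). Without the 2 mice farthest in Cux2 the r was 0.50. Slc17a7 and Slc17a6 had an r of 0.028 (permutation p = 0.912).

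The genes most like the members were named by the Pearson r of their log2 CPM with the mean standardised log2 CPM of the 8 members over the 19 mice. Among 18521 genes, 5 members held ranks 2, 3, 5, 7 and 8 of this order: Tbr1, Slc17a7, Neurod6, Emx1 and Neurod2. They helped to set the score, and Cux2 came only at rank 532 and Rorb at rank 4991. The highest genes that are no members included Dgkz (r = 0.92), Rtn4r (0.91), Cck (0.90), Nptxr, Gm11549, Adam33, Igfn1, Nptx1 and Vxn (0.86). Cck encodes a peptide of cortical neurons and Rtn4r the Nogo receptor. Cck had 2600 counts at its highest and 105 at its lowest. The 5 lowest were Elmo1 (-0.86), Msh6, AI606473, Nup50 and Tmc3 (-0.82). Without WT replicate 3 and KI-571 replicate 2 the r fell to 0.63 for Dgkz, 0.68 for Rtn4r and 0.27 for Vxn. The score was lowest in KI-FL replicate 4 (-0.92), where Neurod6, Emx1 and Fezf2 were at 0 counts. Gm11549, Adam33 and Igfn1 also had a lowest count of 0. The order of genes was not computed without KI-FL replicate 4, so the part of its missing counts in these r was not tested.

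Ppp1r1b encodes DARPP-32, the phosphatase inhibitor that relays dopamine signals in striatal projection neurons. In WT mice it was at 1151 CPM at the lowest, 1619 at the median and 2234 at the highest. The KI-96 mice were at 1772, 2022, 888 and 1379 CPM, the KI-571 mice at 1946, 1745, 2029.7 and 1547 CPM, and the KI-FL mice at 2053, 1820, 1897 and 1849 CPM. The lowest level, in KI-96 replicate 3, was in a library with 24.2% of its counts on no gene, against 11.1% to 16.0% in the others. Its slope on Slc17a7 was 0.025 (SE 0.042, adjusted p = 0.948 by edgeR's quasi-likelihood test). Across the 19 mice the Pearson r of Ppp1r1b and Slc17a7 was 0.22 (permutation p = 0.348) and Spearman's rho was 0.28 (permutation p = 0.249). It was 0.21 without WT replicate 3 and KI-571 replicate 2. In the 7 WT mice r was 0.54 (exact permutation p = 0.218) and in the 12 KI mice -0.011 (permutation p = 0.967).

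Drd1 encodes the D1 dopamine receptor of direct-pathway projection neurons. In WT mice it was at 198 CPM at the lowest, in WT replicate 3, at 236 at the median and at 314 at the highest. The KI-96 mice were at 256, 239, 209.9 and 161 CPM, the KI-571 mice at 268, 179, 217 and 218 CPM, and the KI-FL mice at 262, 218, 208 and 255 CPM. The 3 lowest mice of all were KI-96 replicate 4, KI-571 replicate 2 and WT replicate 3, which were also the 3 highest for Slc17a7. WT replicate 3 was at 0.823 and KI-571 replicate 2 at 0.820 of the median of the other mice of their genotype. The slope of Drd1 on Slc17a7 was -0.065 (SE 0.031), with an unadjusted p of 0.0488 and an adjusted p of 0.567 by edgeR's quasi-likelihood test.

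Across the 19 mice the Pearson r of Drd1 and Slc17a7 was -0.43 (permutation p = 0.0638, adjusted p over 18 relations 0.230) and Spearman's rho was -0.33 (permutation p = 0.169, adjusted p = 0.344). Without WT replicate 3 and KI-571 replicate 2 the r was weaker, at -0.21 (permutation p = 0.428). Without WT replicate 3 alone it was -0.40 (permutation p = 0.104). In WT mice r was -0.16 (n = 7, exact permutation p = 0.743) and in KI mice -0.70 (n = 12, permutation p = 0.0115), and the difference between them was not tested. Of the 18 relations between the 9 members and the 2 striatal genes, 2 had an adjusted p under 0.05 by Pearson's r and none by Spearman's rho. The first was Cux2 with Drd1, with r = -0.63 (permutation p = 0.00387, adjusted p = 0.0348) and rho = -0.57 (permutation p = 0.0121, adjusted p = 0.109). Its r was -0.66 without the 2 mice farthest in Cux2, -0.76 in the 7 WT mice (exact permutation p = 0.0502) and -0.59 in the 12 KI mice (permutation p = 0.0440). The second was Neurod1 with Drd1, with r = -0.65 (permutation p = 0.00262, adjusted p = 0.0348), in which Neurod1 rests on 0 to 30 counts a mouse. Cux2 with Ppp1r1b had an r of -0.53 (permutation p = 0.0199, adjusted p = 0.119). It was -0.42 (permutation p = 0.0878) without the 2 mice farthest in Cux2. In the 7 WT mice it was -0.051 (exact permutation p = 0.934) and in the 12 KI mice -0.76 (permutation p = 0.00378). KI-96 replicate 3 was the highest mouse for Cux2 and the lowest for Ppp1r1b.

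**Figure D4:**
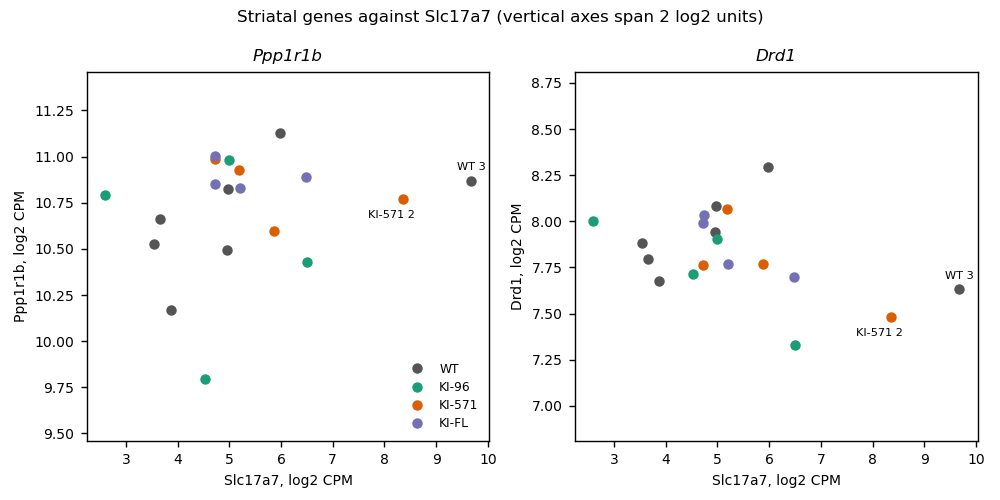
Ppp1r1b (left) and Drd1 (right), in log2 CPM, against Slc17a7 (log2 CPM) in the 19 mice, coloured by genotype, with the same vertical span in both panels. The r is 0.22 for Ppp1r1b and -0.43 for Drd1, and WT replicate 3 and KI-571 replicate 2 are among the 3 lowest mice for Drd1 (198 and 179 CPM).

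Among 14 other genes of striatal projection neurons, 1 fell with Slc17a7 and none rose. That gene was Isl1, a transcription factor gene of direct-pathway neurons and cholinergic interneurons (slope -0.13, SE 0.029, adjusted p = 0.0276 by edgeR's quasi-likelihood test). It was lowest in KI-571 replicate 2 and next lowest in WT replicate 3 (14.2 CPM), and at 15.2 to 25.7 CPM in the other 17 mice. The call was lost without WT replicate 3 (slope -0.16, adjusted p = 0.730), without WT replicate 4 (-0.12, 0.0623), without KI-571 replicate 2 (-0.11, 0.160) and without KI-571 replicate 3 (-0.12, 0.0523). Pdyn, which encodes prodynorphin, had a slope of -0.14 (SE 0.036) with an adjusted p of 0.0738. Of the 14 slopes, 11 were below 0, and their median was -0.022. None of the 8 oligodendrocyte genes (median slope -0.051, all 8 below 0), the 5 astrocyte genes (median -0.067, all 5 below 0), the 5 microglia genes, the 5 choroid plexus genes (median 0.34) or the 5 red blood cell genes (median 0.068) passed the test.

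Other tissues were partly alike and partly different in the 2 extreme mice. The summed level of the astrocyte genes was 792 CPM in WT replicate 3 and 946 to 1129 CPM in the other WT mice, and that of the oligodendrocyte genes was 10766 CPM against 12413 to 15407 CPM. KI-571 replicate 2 was also the lowest of its genotype for the oligodendrocyte genes, at 10687 CPM, where KI-571 mice reached 15092 CPM. Its astrocyte genes summed to 919 CPM, inside the 857 to 1055 CPM of KI-571 mice. In KI-571 replicate 2 the 5 choroid plexus genes summed to 5080.2 CPM, near the 5312 CPM of KI-571 replicate 4, and the red blood cell genes to 483 CPM, the highest of the 19 mice. In WT replicate 3 the choroid plexus genes summed to 192 CPM and the red blood cell genes to 79.5 CPM. The part of these tissues in the levels of the cortical markers was not tested.

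Each KI genotype was compared with WT, and the KI genotypes with each other, to ask whether the cortical markers differed by genotype. In KI-96 mice against WT, 0 of the 8 members tested passed an adjusted p of 0.05 by edgeR's quasi-likelihood test and 0 by DESeq2, where 0.027% of all genes did by edgeR. At an unadjusted p under 0.05 there was 1 member, beside 7.45% of all genes. It was Tbr1, with a log2 fold change of -2.60 (SE 1.05, unadjusted p = 0.0220, adjusted p = 0.639), which was -0.62 (SE 0.65, adjusted p = 0.872) without WT replicate 3. Slc17a7 differed by -1.88 (SE 1.10, adjusted p = 0.722). Of the 8 members, 6 had a fold change below 0, as had 52.8% of all genes, and Cux2 (0.22, SE 0.23) and Rorb (0.31, SE 0.19) were above it.

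In KI-571 mice against WT, 0 of 8 members were called by edgeR and 0 by DESeq2 (0.0324% of all genes by edgeR), and 0 had an unadjusted p under 0.05 (7.72% of all genes). Of the 8 members, 6 lay below 0, as did 51.7% of all genes. The log2 fold change was -0.32 for Slc17a7 (SE 1.02, adjusted p = 0.992), -0.69 for Tbr1 (SE 0.93) and 0.13 for Emx1 (SE 0.90). In KI-FL mice against WT, 0 of 8 members were called by edgeR and 0 by DESeq2 (0.194% of all genes by edgeR). Emx1 was the 1 member with an unadjusted p under 0.05, at -2.98 (SE 1.14, unadjusted p = 0.0163, adjusted p = 0.200), beside 16.7% of all genes. Without KI-FL replicate 4, which holds 0 counts of it, Emx1 was at -2.56 (adjusted p = 0.374), and without WT replicate 3 at -0.997 (SE 0.75, adjusted p = 0.517). All 8 members had a fold change below 0 in KI-FL mice, as had 53.9% of all genes, with Slc17a7 at -1.64 (SE 1.09, adjusted p = 0.453) and Neurod6 at -2.14 (SE 1.16).

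**Figure D5:**
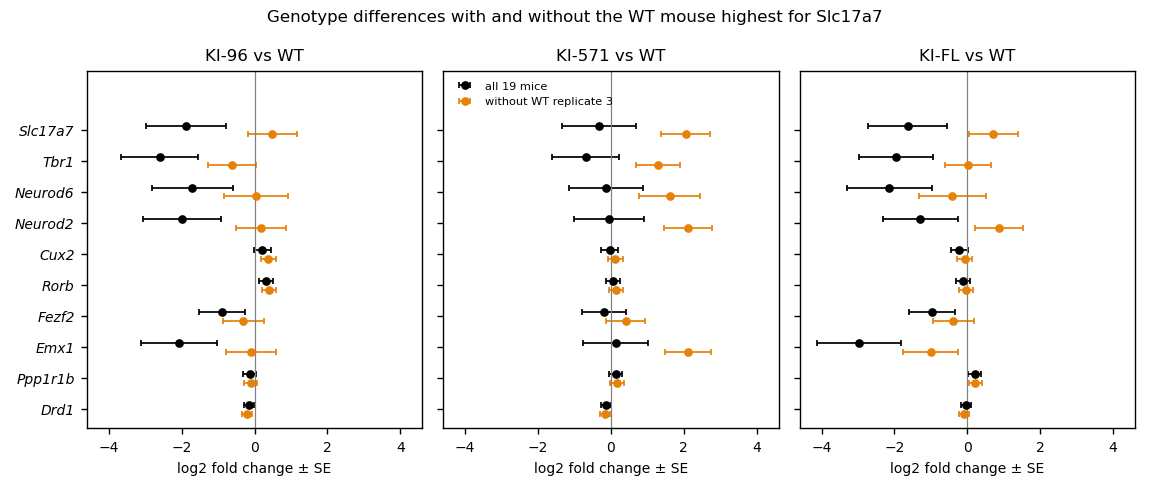
Log2 fold change (± SE) of the 8 tested members and of Ppp1r1b and Drd1 in each KI genotype against WT, with all 19 mice (black) and without WT replicate 3 (orange); the grey line marks no change. Slc17a7, Neurod2 and Tbr1 move right in each panel once that mouse is left out, and Ppp1r1b and Drd1 move little.

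Several of these fold changes, though not all, rested on WT replicate 3. Without it the log2 fold change of Slc17a7 was 0.49 (SE 0.67, adjusted p = 0.910) in KI-96 mice, 2.05 (SE 0.67, adjusted p = 0.293) in KI-571 mice and 0.72 (SE 0.67, adjusted p = 0.609) in KI-FL mice, so that its sign turned in all 3 comparisons. Neurod2 turned likewise, to 0.18, 2.11 and 0.87. In KI-571 mice Emx1 was then at 2.12 (SE 0.63, unadjusted p = 0.00307, adjusted p = 0.243). When KI-571 replicate 2 was left out as well, Slc17a7 was at 0.58 in KI-571 mice and did not pass the test. With KI-571 replicate 2 alone left out, Slc17a7 was at -1.80 (SE 1.16) in KI-571 mice. Cux2 and Rorb moved less: in KI-96 mice Cux2 went from 0.22 to 0.38 and Rorb from 0.31 to 0.39 when WT replicate 3 was left out, and neither passed the test. With KI-96 replicate 3, the highest mouse for both genes, left out instead, Cux2 was at -0.033 (SE 0.23) in KI-96 mice. Without WT replicate 3 the members with a fold change below 0 went from 6 to 3 of 8 in KI-96 mice. They went from 6 to 0 in KI-571 and from 8 to 5 in KI-FL mice (51.8%, 50.7% and 54.6% of all genes without WT replicate 3). When the Xist level entered the fit of all mice, Slc17a7 was at -1.77, -0.33 and -1.63 in the 3 genotypes, and no member passed the test in any comparison.

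Between KI genotypes, 0 of 8 members were called in KI-96 against KI-571, in KI-96 against KI-FL and in KI-571 against KI-FL by edgeR or by DESeq2 (0.0054%, 0% and 0.0864% of all genes by edgeR). At an unadjusted p under 0.05 there were 0, 0 and 1 members (5.51%, 8.9% and 8.9% of all genes). The fold change was below 0 for 6, 3 and 0 of the 8 members (50.8%, 47.3% and 47.2% of all genes). The 1 was Emx1 in KI-571 against KI-FL mice, at 3.11 (SE 1.21, unadjusted p = 0.0176, adjusted p = 0.468). It was at 2.08 (SE 1.23, unadjusted p = 0.105) without KI-571 replicate 2 and at 2.70 (SE 1.30, unadjusted p = 0.0511) without KI-FL replicate 4. Slc17a7 went from 1.32 to -0.15 in this comparison without KI-571 replicate 2. All 3 KI genotypes together against WT gave 0 members by either tool (0.054% of all genes by edgeR) and 2 at an unadjusted p under 0.05 (12.9% of all genes), Tbr1 at -1.75 (SE 0.69) and Emx1 at -1.64 (SE 0.71). Of the 8 members, 7 lay below 0 in this comparison, as did 54.5% of all genes. Without WT replicate 3 Tbr1 was at 0.23 (SE 0.49) and Emx1 at 0.34 (SE 0.54), and 1 of the 8 members lay below 0, beside 54.1% of all genes.

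Ppp1r1b differed from WT by a log2 fold change of -0.13 in KI-96 (SE 0.18, adjusted p = 0.908), 0.13 in KI-571 (SE 0.18, adjusted p = 0.960) and 0.20 in KI-FL mice (SE 0.18, adjusted p = 0.585). With log2 CPM of Slc17a7 as a covariate these became -0.11, 0.12 and 0.20. Drd1 differed by -0.16 (SE 0.14), -0.13 (SE 0.14) and -0.037 (SE 0.14), and with the covariate by -0.21, -0.090 and -0.040. None of these passed the test in either fit. Over all genes the covariate changed the number called against WT from 5 to 2 in KI-96, from 6 to 4 in KI-571 and from 36 to 76 in KI-FL mice. Leaving out WT replicate 3 without a covariate gave 2, 0 and 67 genes. The covariate fit over all genes was added after seeing the data.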

How the data were processed

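Striatal RNA of 19 mice was sequenced. The authors trimmed adapters with BBduk, aligned reads to GRCm38 with STAR and counted them on genes with HTSeq, and deposited raw read counts per gene. Versions, annotation release and strand setting are not given in the sources used here. The 5 HTSeq summary lines (20.8% to 32.8% of a library) were left out, as were 4 columns that the series text says to disregard. Names were matched for 54079 of 54232 identifiers, and positions were taken from GENCODE release M21.

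Counts were scaled by TMM, filtered with filterByExpr (minimum count 10, minimum total 15) and fitted over all 19 mice with edgeR 4.0.16 in R 4.3.3 by the quasi-likelihood F-test with Benjamini-Hochberg adjustment over all genes tested. The slope fit added log2 CPM (prior count 2) of Slc17a7 to genotype. Relations across mice were tested two-sided, with 100000 resamples or, in the 7 WT mice, exactly (scipy 1.17.1). DESeq2 1.42.0, its size factors, other filters, a replicate block, leaving out each mouse and log2 CPM of Xist as a covariate were tried as alternatives, and the fits were tested on simulated data. The study's sacrifice batch and the WT mouse it removed, which may be WT replicate 3, are not in the labels, so no batch term was fitted and all 7 WT mice were kept. For same-numbered mice of different genotypes the r of their deviations was -0.13 to 0.29 over 24 pairs, 5 above 0.1. Differently numbered mice were not compared in this way, so these values cannot decide whether the numbers pair the mice. At this depth 3 counts correspond to 0.106 to 0.238 CPM, which limits Neurod1, Emx1 and Neurod6. No libraries were duplicates (chi-square per degree of freedom at least 8.60).

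Genes named are the members, Ppp1r1b and Drd1, the 10 most and 5 least like the members, and up to 4 abundant genes of each marker list. A gene of these lists is not reported here. Isl1, Slc30a3, Nr4a2 and others named as called were chosen after their values were seen. The members and lists were chosen with earlier results of these data known.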

Additional observations from a re-analysis of the deposited data

Results flagged for a closer look

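In a group of 4 to 10 mice, a mouse whose gap to its nearest neighbour is too large a share of the group's range was picked out with Dixon's critical value. Of 44 gene and genotype groups tested, 5 were picked out, where chance alone gives about 2. The groups share mice and several members vary together, so the 5 are not separate events and cannot be weighed against that number. In WT replicate 3, 4 members were picked out: Slc17a7 at 9.68 log2 CPM (3.54 to 5.97 in the other WT mice), Neurod2 at 5.65 (-0.18 to 2.25), Fezf2 at 4.04 (1.49 to 2.46) and Emx1 at 3.62 (-1.94 to 0.23). Their counts in that mouse were 13875, 852, 276 and 206. The fifth was Rorb in KI-571 replicate 1, at 5.14 log2 CPM (734 counts), where the other KI-571 mice lay between 4.65 and 4.67. Tbr1, Neurod6 and Neurod1 were not picked out in WT replicate 3, although it was the highest mouse for each of them. Cux2, Rorb, Ppp1r1b and Drd1 were not picked out in it either. Why these mice stood apart was not tested.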

How the results depend on the processing

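Of 1456 values computed under the alternatives, 1366 kept their direction and their side of the threshold. No alternative gave a called member in a comparison of genotypes. The cause of the changes below was not tested. The count of other members that rose with Slc17a7 went from 4 to 1 with at least 10 counts required in every mouse, which leaves fewer members to test, and to 1 without WT replicate 3 and KI-571 replicate 2. With any single mouse removed the count ranged from 3 to 6. It was 3 without WT replicate 3 and 6 without KI-FL replicate 4. Fezf2 also passed by DESeq2 and with no filter (adjusted p = 0.0296 and 0.0186). With the replicate block, a number not described as pairing these mice, Ppp1r1b was at -0.044 in KI-571 against WT and at a slope of -0.0045. Emx1, Isl1, Bhlhe22 and Nr4a2 no longer passed in that fit, with slopes of 0.85, -0.13, 0.43 and 0.70. Without WT replicate 3 and KI-FL replicate 4 the slope of Rorb was -0.022. Without WT replicate 3 and KI-571 replicate 2, a setting chosen after seeing the data, the slope was -0.0053 for Cux2 and -0.041 for Rorb. In that setting the log2 fold change turned above 0 for Slc17a7 (0.49 in KI-96, 0.58 in KI-571, 0.72 in KI-FL), Neurod2 (0.17, 0.48 and 0.86), Neurod6 (0.024 and 0.26 in KI-96 and KI-571), Fezf2 (0.21 in KI-571) and Tbr1 (0.0089 in KI-FL).

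With any single mouse removed, the log2 fold change in KI-96 against WT ranged from -2.79 to 0.49 for Slc17a7, -2.58 to 0.032 for Neurod6, -2.43 to 0.18 for Neurod2, -0.033 to 0.38 for Cux2 and -0.30 to 0.053 for Ppp1r1b. In KI-571 it ranged from -1.80 to 2.05 for Slc17a7, -2.21 to 1.29 for Tbr1, -1.50 to 1.61 for Neurod6, -1.70 to 2.11 for Neurod2, -0.25 to 0.12 for Cux2, -0.091 to 0.14 for Rorb, -0.38 to 0.41 for Fezf2 and -0.90 to 2.12 for Emx1. In KI-FL it ranged from -2.24 to 0.72 for Slc17a7, -2.75 to 0.014 for Tbr1, -1.81 to 0.87 for Neurod2, -0.35 to 0.0069 for Rorb and -0.10 to 0.036 for Drd1. The slope of Rorb ranged from -0.049 to 0.049. The r of Slc17a7 and Drd1 ranged from -0.56 to -0.32, with a permutation p of 0.0165 without WT replicate 2 and 0.0420 without WT replicate 6.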
